A study of Mus musculus with 111 samples.

Results

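The genes described here encode the degradative machinery of the lysosome: 37 genes for cathepsins and other peptidases, glycosidases and a sulfatase, lipid hydrolases with their activators and cholesterol carriers, membrane proteins, subunits of the proton pump and progranulin. They were listed by name as a readout of phagocytic load, and each was followed through probesets annotated to that gene and no other. Of the 37 genes 36 were measured, through 75 probesets, among 15707 genes on 32688 probesets in all. Cathepsin D (Ctsd) had no such probeset in the annotation used and was not analysed here.

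Male C57BL6/J mice, purchased young adults of an inbred strain, were sprayed once through the trachea with bleomycin at 2 U/kg or with saline, and whole left and right lungs were taken at 7 times, the earliest at day 1 and day 2, then weekly between day 7 and day 35. Bleomycin is a drug that breaks DNA and injures the lung epithelium, and a single dose gives an inflammation followed by fibrosis. RNA of each mouse was hybridized to 1 array, giving 56 arrays of bleomycin mice and 55 of saline mice, 8 in each of 14 groups except saline mice of day 14 with 7, where the authors removed 1 array as an outlier. Each day had its own saline mice, and no mouse was followed over time. Levels are given on the log2 scale of the normalized arrays and differences as bleomycin minus saline, so that a difference of 1 is a 2-fold higher level in bleomycin mice. A gene was taken as higher or lower where limma, fitted over the arrays of all 14 groups, gave an adjusted p under 0.05 with Benjamini-Hochberg adjustment over all 15707 genes. Each gene was read on its most variable probeset, and levels of different genes are not set against each other.

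Lysosomes are acidic organelles in which proteins, glycans and lipids taken up by phagocytosis, endocytosis or autophagy are broken down. A proton pump of many subunits, the V-ATPase, acidifies the lumen, most hydrolases reach it through mannose 6-phosphate receptors, and highly glycosylated membrane proteins line it. In the lung alveolar macrophages are rich in lysosomes, and alveolar type II cells keep surfactant in lamellar bodies, organelles related to lysosomes. Many lysosomal genes carry a short palindromic element near their start, named CLEAR, to which the transcription factor TFEB and its relatives bind.

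The CLEAR element is shown because it is the sequence that lysosomal promoters are known to share. The genes were listed by name and not by this element. As they were listed for being lysosomal, a larger share with the element is known beforehand and is no independent result. RefSeq promoter windows, 250 bases before to 50 bases after a transcript's start in the build GRCm38.p6, were given for 30 of the 37 genes. The core letters GTCACGTG, read on either strand, were found in windows of 7 of these 30 genes (23.3%), in 3.96% of 12513 measured genes with a window and in 2.25% of all 32851 windows. The palindrome TCACGTGA, which overlaps the core, was found in 5 genes (16.7%) and in 1.69% of measured genes, and the shorter E-box CACGTG, which lies inside both, in 10 genes (33.3%) and in 10.6% of measured genes. The core matches of the 6 measured genes among the 7 are printed below on the strand of the gene, with the core in capitals (GTCACGTG, or CACGTGAC where it lies on the other strand).
Ctsa, chr2:164833751-164833774, plus strand: agcaaactGTCACGTGatgcagat
Lamp1, chr8:13159125-13159148, plus strand: ccgactggCACGTGACcacatcac
Atp6v0d1, chr8:105566054-105566077, minus strand: ctactgcgGTCACGTGagacgcgg
Glb1, chr9:114401020-114401043, plus strand: gcttctgaGTCACGTGgcctacag
Naglu, chr11:101070011-101070034, plus strand: accttcagGTCACGTGgcccgagg
Gla, chrX:134601186-134601209, minus strand: agatctcgGTCACGTGagcaactc
The first base of the core lay 14 bases before the start in Ctsa, 28 in Lamp1, 5 in Atp6v0d1, 50 in Glb1, 75 in Naglu and 196 in Gla. For Ctsa the window is that of an internal transcript start, and a further core match lay 5 bases past it. A match of letters does not show that a factor is bound. Of these 6 genes Lamp1 had the smallest log2 fold change at day 7, 0.01, and Gla, on a dim probeset, the largest, 1.04. Atp6v0d1 had 0.18, Ctsa 0.48, Glb1 0.48 and Naglu 0.59. Whether the element has a part in these values was not tested.

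At day 21 a pair of arrays stood apart. The array labelled bleomycin day 21 replicate 4 had a median correlation of 0.979 with the other bleomycin arrays of that day and of 0.991 with the saline arrays. Its level of Cd68 was 10.73, against 11.53 to 12.87 in the other 7 bleomycin mice and 10.64 to 11.14 in the other 7 saline mice, and that of Trem2, a phagocytic receptor of macrophages, was 7.59, against 9.26 to 10.75 and 7.70 to 7.92. The array labelled saline day 21 replicate 4 had 12.05 for Cd68 and 9.62 for Trem2, above every other saline mouse of the day, while its median correlation was 0.987 with the other saline arrays and 0.980 with the bleomycin arrays. Both arrays were kept under their labels in the values below, and day 21 is also given without them. They were singled out after the data were seen, on levels that include Cd68, a gene of this list. A larger separation of these genes without them is therefore no independent result. Array medians ranged from 8.61 to 8.73 over the series, and no array held the values of another.

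Few lysosomal genes were higher in bleomycin mice on days 1 and 2, and most were from day 7 on. The genes were chosen with earlier results of these data known, and the part of that choice in the counts below was not tested. At day 1, 7 of the 36 genes were higher (19.4%, against 14.7% of all genes) and 5 lower (13.9%, against 16.7%). At day 2, 11 were higher (30.6%, against 14.2%) and 4 lower (11.1%, against 13.1%). At day 7, 28 were higher (77.8%, against 25.7% of all genes) and 3 lower, namely Ctsl, Gaa and Npc1 (8.33%, against 21.9%). At day 14, 29 were higher (80.6%, against 21.9%) and none lower, where 19.7% of all genes were. At day 21, 30 were higher (83.3%, against 20.5%) and none lower, where 18.9% of all genes were. At day 28, 26 were higher (72.2%, against 11.5%) and none lower, where 11.8% of all genes were. At day 35, 26 were higher (72.2%, against 16.9%) and 1, Ctsl, was lower, where 12.5% of all genes were. Without replicate 4 of both groups 30 genes were higher at day 21, without the bleomycin array alone 31 and without the saline array alone 29. The shares at day 1 and that of lower genes at day 2 stood near those of all genes, the share of higher genes at day 2 stood above it, and from day 7 on higher genes stood far above and lower genes below those of all genes.

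The changes were small in size. The median log2 fold change of the 36 genes was 0.01, 0.07, 0.42, 0.38, 0.37, 0.27 and 0.28 from day 1 to day 35, and that of all 15707 genes stayed between -0.01 and 0.02. Cd68 alone was over 2-fold higher on days 7, 14, 21, 28 and 35, joined at day 7 by Gla, on days on which 2.85%, 2.41%, 1.14%, 0.573% and 0.649% of all genes were over 2-fold higher. No member was over 2-fold lower on any day. Of the 36 genes 23 were higher on all 5 days from 7 to 35, and 3 (Cd68, Lipa and Scarb2) on all 7 days. With all saline arrays as control these 3 genes were not called at day 1, where Cd68 had 0.29, and on the brightest probeset Lipa was not called on days 1 and 2 and Scarb2 on days 7, 14, 28 and 35. In whole lung a higher level cannot tell more cells of a type from more RNA per cell.

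**Figure D1:**
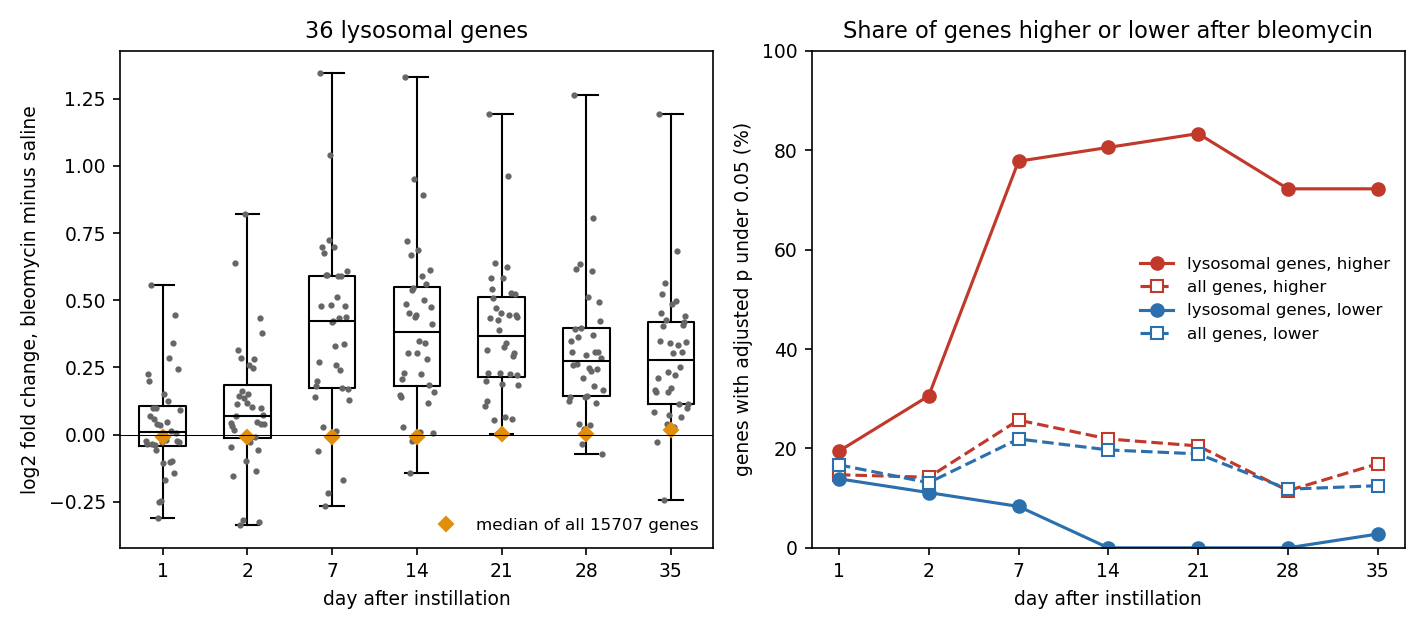
Left, log2 fold change of bleomycin minus saline for the 36 lysosomal genes (points, with box for quartiles and median and whiskers to the lowest and highest gene) and the median of all 15707 genes (diamonds) by day. Right, percentage of lysosomal genes (filled) and of all genes (open) with an adjusted p under 0.05, higher (red) or lower (blue) in bleomycin mice. The share of higher lysosomal genes was 19.4% at day 1 and 83.3% at day 21.

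Mice of the groups were well separated for many of these genes. Every bleomycin mouse was above every saline mouse of the day for 1 lysosomal gene at day 1 (1.36% of all genes), none at day 2 (1.41%), 19 at day 7 (10.3%), 24 at day 14 (10.0%), 2 at day 21 (2.02%), 11 at day 28 (2.13%) and 17 at day 35 (3.95%). The gene of day 1 was Scarb2, and the 2 genes of day 21 were Lamp2 and Atp6v1a. Without replicate 4 of both groups the number at day 21 was 26, against 8.42% of all genes. Without the bleomycin array alone it was 16, against 6.12%, and without the saline array alone 3, against 3.09%. These arrays were singled out on values that include these genes, so the rise without them is no independent result.

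The level averaged over the 36 genes, taken for each mouse relative to the saline mean of its day, separated all or nearly all bleomycin mice from saline mice from day 7 on. At day 7 it was 0.29 in the lowest, 0.38 in the median and 0.48 in the highest bleomycin mouse, against -0.06, -0.02 and 0.11 in saline mice. At day 14 it was 0.30, 0.42 and 0.45 in bleomycin mice and -0.08, 0.02 and 0.08 in saline mice. All 8 bleomycin mice were above every saline mouse on days 7, 14 and 35. At day 28 the average was 0.12, 0.33 and 0.45 in bleomycin mice and -0.11, -0.01 and 0.12 in saline mice, so that 7 of 8 were above. At day 35 it was 0.13, 0.29 and 0.45 in bleomycin mice and -0.04, -0.01 and 0.06 in saline mice. At day 21 it was -0.04, 0.45 and 0.55 in bleomycin mice, with replicate 4 lowest, and -0.06, -0.01 and 0.15 in saline mice, with replicate 4 highest. Day 1 (-0.03, 0.03 and 0.10 in bleomycin mice, -0.08, 0.00 and 0.06 in saline mice) and day 2 (0.00, 0.09 and 0.20 in bleomycin mice, -0.07, 0.01 and 0.06 in saline mice) overlapped.

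**Figure D2:**
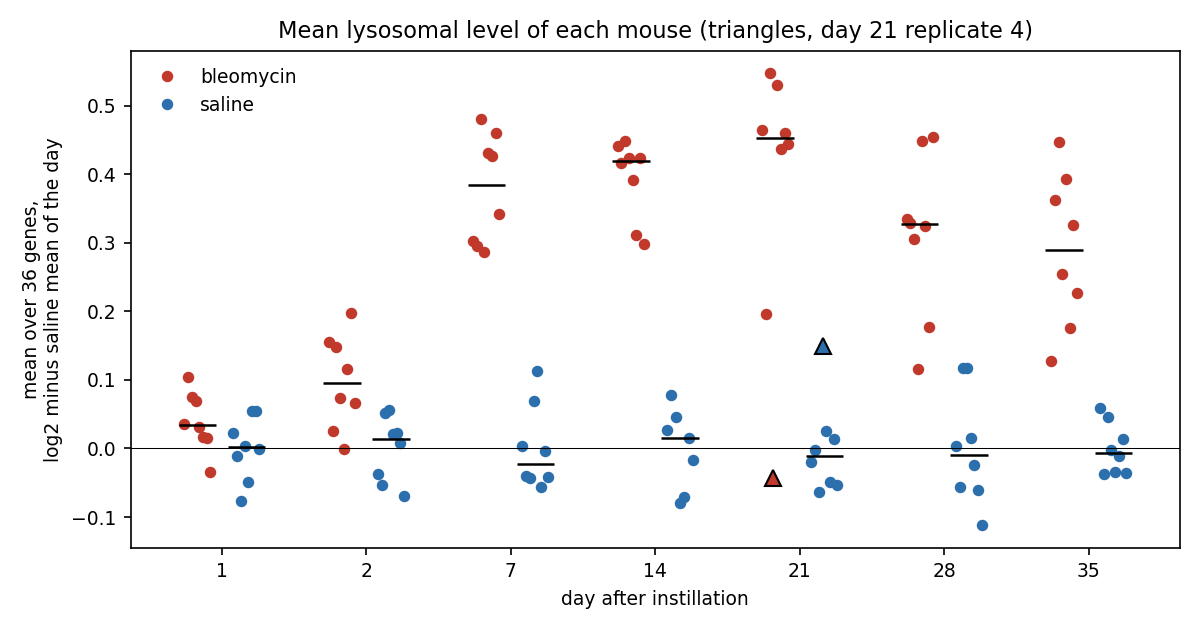
Level of each mouse averaged over the 36 lysosomal genes, on the log2 scale relative to the saline mean of the same day (vertical axis), by day (horizontal axis), with bleomycin mice in red left of saline mice in blue, the median of each group as a line and replicate 4 of day 21 as triangles. Bleomycin mice lay at 0.29 and above at day 7, and the triangle of the bleomycin group at -0.04.

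Membrane proteins included the gene with the largest change. Cd68, a heavily glycosylated lysosomal protein by which macrophages are stained, was 10.88 in the lowest, 11.39 in the median and 11.70 in the highest bleomycin mouse at day 1, against 10.02, 10.86 and 11.14 in saline mice. At day 2 it was 11.24, 11.87 and 12.15 in bleomycin mice, against 10.77, 11.06 and 11.47 in saline mice. On both days the groups overlapped, with 6 of 8 bleomycin mice above every saline mouse. The level at day 7 was 12.18, 12.50 and 12.68 in bleomycin mice, against 10.89, 11.11 and 11.49 in saline mice. On day 14 its level was 12.21, 12.50 and 12.76 in bleomycin mice, against 11.01, 11.12 and 11.42 in saline mice. The groups did not overlap on either day, nor on days 28 and 35. Its log2 fold change was 0.56 at day 1 (standard error 0.17, limma adjusted p = 0.00623), 0.64 at day 2 (standard error 0.17, adjusted p = 0.00165), 1.34 at day 7 (a 2.54-fold level, standard error 0.17, adjusted p = 3.13e-11) and 1.33 at day 14. It was 1.19, 1.26 and 1.19 on days 21, 28 and 35, and 1.55 at day 21 without replicate 4 of both groups.

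The other membrane proteins changed less. Laptm5, a lysosomal protein of blood cells, was higher from day 2 on, by 0.25 at day 2 and 0.50 to 0.62 later, and on the brightest probeset by 0.11 to 0.17 from day 7 on, with no call at day 2. Scarb2, the receptor that carries glucocerebrosidase to the lysosome, was higher on all days, by 0.25 at day 1 and 0.61 at day 7. Lamp1 and Lamp2, the main glycoproteins of the lysosomal membrane, differed in size of change: Lamp2 was higher from day 2 on, by 0.10 to 0.34, and Lamp1 at day 21 alone, by 0.07 (adjusted p under 0.05 there and not with 1 fit per day). On the brightest probesets values were smaller, with 0.03 for Scarb2 and 0.10 for Lamp2 at day 7. There Scarb2 was called on days 1, 2 and 21 and not on days 7, 14, 28 and 35 (0.01 to 0.03), and Lamp2 was not called on days 28 and 35 (0.04 and 0.03). The day 2 call of Lamp2 was lost with 1 fit per day.

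Among 6 cysteine cathepsins, papain-like proteases, 4 were higher and 1 lower at day 7, and 5 were higher and none lower at day 14, beside 25.7% of all genes higher and 21.9% lower at day 7 and 21.9% and 19.7% at day 14. Ctsb, a cathepsin that cuts within and at the end of proteins, had the largest change of the group on the most variable probesets. For day 7 it was 10.99, 11.25 and 11.58 in bleomycin mice (lowest, median, highest), against 10.47, 10.55 and 10.73 in saline mice. At day 14 it was 11.08, 11.33 and 11.47 in bleomycin mice, against 10.34, 10.55 and 10.75 in saline mice. All bleomycin mice were above all saline mice on both days. Its level at day 21 was 10.54, 11.39 and 11.65 in bleomycin mice, against 10.48, 10.64 and 11.29 in saline mice, and the groups overlapped. The difference on the log2 scale was 0.70 at day 7 (standard error 0.10, limma adjusted p = 3.05e-09), 0.72 at day 14 (standard error 0.10, adjusted p = 5.61e-09) and 0.58 at day 21, or 0.77 there without replicate 4 of both groups. Over the other ways of processing, the lowest values of Ctsb were 0.39 at day 7 and 0.38 at day 14. Those of Ctss, described next, were 0.57 and 0.66, so the rank of Ctsb depends on the processing.

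Ctsh, which trims surfactant proteins in type II cells, had its largest change at day 7 with 0.67. Ctss, which frees class II histocompatibility molecules from their chaperone, was higher from day 2 on, by 0.28 at day 2 and 0.56 to 0.67 later, and Ctsz, a carboxypeptidase, was higher from day 7 on, by 0.40 to 0.60. Ctsc, which activates the serine proteases of leukocyte granules, was 0.31, 0.31, 0.54 and 0.52 higher on days 2, 14, 21 and 35, and its values of 0.03 at day 7 and 0.26 at day 28 did not pass the test. The day 2 call of Ctsc was lost with 1 fit per day.

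Ctsl, an endopeptidase, had probesets with calls in opposite directions on days 7 and 35. On the most variable one, with a mean level of 9.90, its level at day 7 was 9.48, 9.62 and 9.74 in bleomycin mice, against 9.75, 9.89 and 10.01 in saline mice. Every bleomycin mouse lay below every saline mouse. At day 2 the level was 9.41, 9.57 and 10.00 in bleomycin mice, against 9.85, 9.96 and 10.01 in saline mice, where 7 of 8 bleomycin mice lay below all saline mice. The log2 fold change was -0.34 at day 2 (standard error 0.06, limma adjusted p = 1.89e-05), -0.26 at day 7 (standard error 0.06, adjusted p = 0.000314) and -0.24 at day 35 (standard error 0.06, adjusted p = 0.00206). The other probeset, with a mean level of 12.92, gave 0.14, 0.21, 0.18, 0.20 and 0.18 on days 7 to 35, each with an adjusted p under 0.05. No direction is therefore given for Ctsl as a gene.

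The other peptidases were both higher from day 7 on. Ctsa, a serine carboxypeptidase that also shields β-galactosidase and sialidase from breakdown, was 12.10, 12.25 and 12.39 in bleomycin mice at day 7, against 11.67, 11.77 and 11.80 in saline mice. The level at day 14 was 12.12, 12.30 and 12.38 in bleomycin mice, against 11.71, 11.77 and 11.85 in saline mice. The groups did not overlap on these days. At day 21 it was 11.65, 12.23 and 12.46 in bleomycin mice, against 11.67, 11.71 and 11.93 in saline mice, with 1 bleomycin mouse below all saline mice. Its log2 fold change was 0.48 at day 7 (standard error 0.06, limma adjusted p = 4.89e-11), 0.49 at day 14 and 0.43 at day 21. Tpp1, which removes tripeptides, was higher by 0.11 to 0.18 from day 7 on, and by 0.09 at day 1, a call that was lost with 1 fit per day and with all saline arrays as control.

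**Figure D3:**
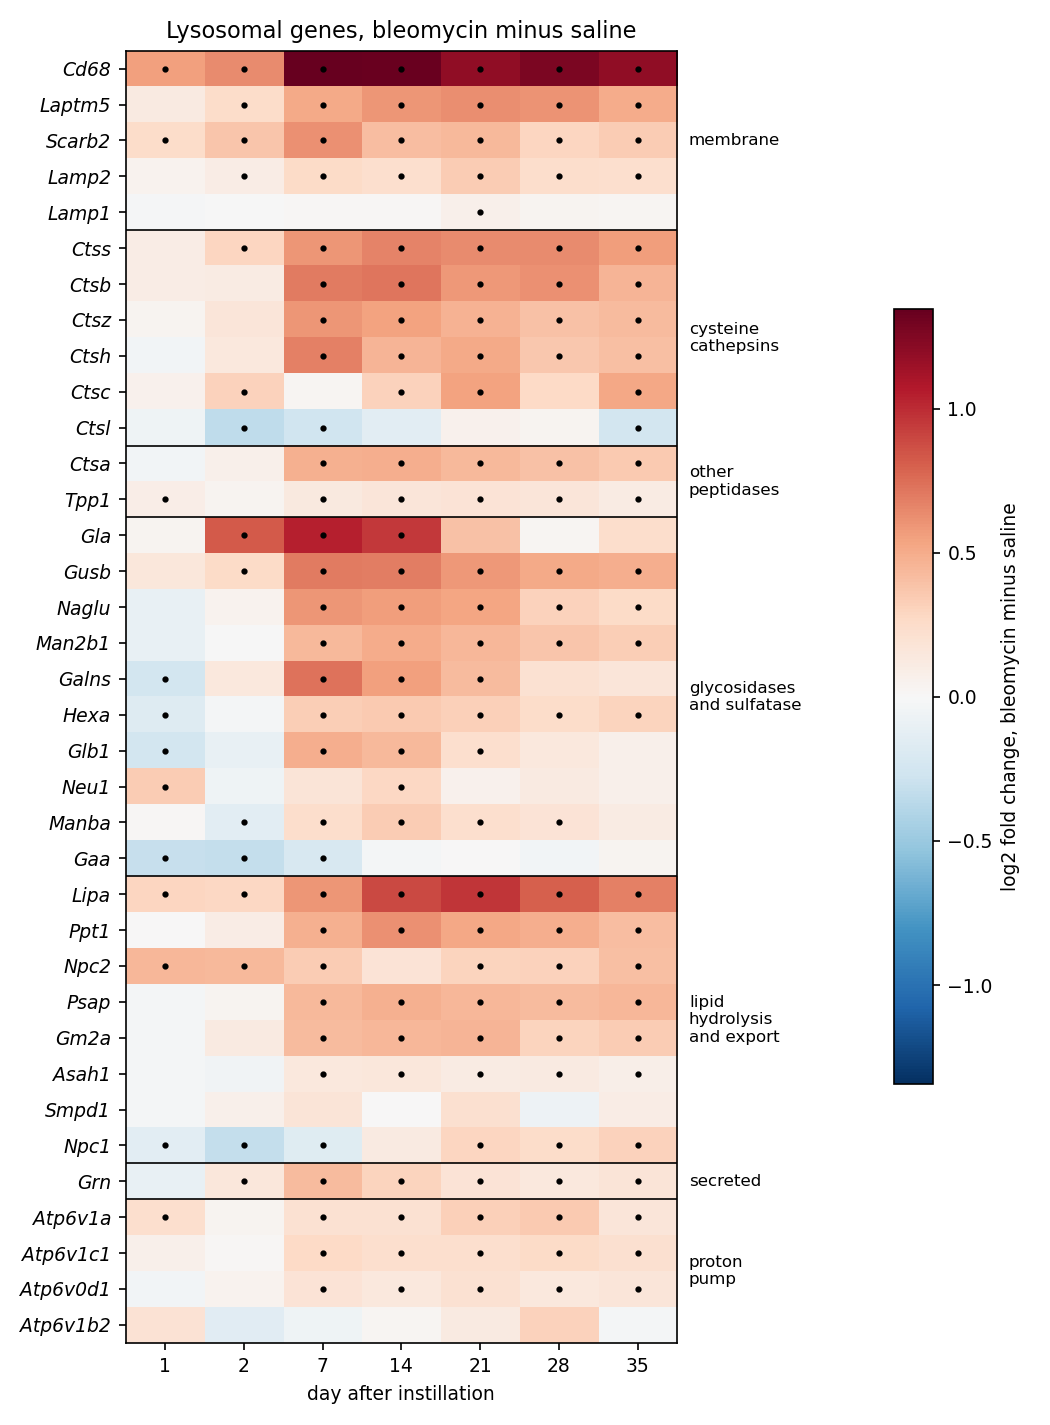
Log2 fold change of bleomycin minus saline (colour, red for higher and blue for lower in bleomycin mice) of the 36 lysosomal genes (rows, by role) on each day (columns), with a dot where the adjusted p was under 0.05. Cd68 reached 1.34 at day 7, and Gaa and Npc1 were blue on days 1, 2 and 7.

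Of the 9 glycosidases and the sulfatase, Hexa, Glb1, Manba and Galns were lower on a day and higher on others, Gaa was lower on some days and higher on none, and the other 5 were lower on none. At day 1, 4 of the 10 were lower (Gaa, Galns, Glb1 and Hexa) and 1 was higher (Neu1), beside 16.7% of all genes lower and 14.7% higher. At day 14, 9 were higher, beside 21.9% of all genes, and at day 35, 4 were, beside 16.9%. Galns, which takes sulfate off keratan and chondroitin sulfate, was 9.20, 9.44 and 9.75 in bleomycin mice at day 1, against 9.57, 9.64 and 9.88 in saline mice. On day 2 its level was 9.13, 9.42 and 9.69 in bleomycin mice, against 9.14, 9.27 and 9.41 in saline mice. At day 7 it was 9.60, 9.96 and 10.31 in bleomycin mice, against 9.12, 9.30 and 9.37 in saline mice. The groups overlapped on days 1 and 2, with 6 of 8 bleomycin mice below all saline mice at day 1, and did not overlap at day 7. At day 14 it was 9.86, 10.00 and 10.15 in bleomycin mice, against 9.27, 9.42 and 9.63 in saline mice, again without overlap. The difference on the log2 scale was -0.25 at day 1 (standard error 0.09, limma adjusted p = 0.0199), 0.73 at day 7 (standard error 0.09, adjusted p = 1.33e-11) and 0.55 at day 14. Values of 0.21 at day 28 and 0.16 at day 35 did not pass the test. Against all saline arrays the value of day 1 was -0.02, with no call, and the saline groups of Galns differed between days.

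Glb1, the β-galactosidase, followed the same course with -0.25 at day 1, 0.48 at day 7, 0.44 at day 14 and 0.23 at day 21, and no call on days 28 and 35. Naglu, an enzyme of heparan sulfate breakdown, was higher by 0.59 at day 7 and 0.25 at day 35. Hexa, a subunit of β-hexosaminidase, was lower at day 1 (-0.17) and higher by 0.25 to 0.35 from day 7 on. Gusb, the β-glucuronidase, was higher from day 2 on, by 0.26 at day 2 and 0.70 at day 7. Man2b1 and Manba, which remove mannose, were higher at day 7 by 0.44 and 0.24, and Manba was lower at day 2 (-0.14), a call that was lost with array medians subtracted. A second, dimmer probeset of Man2b1 fell by 0.19 at day 7. Neu1, the sialidase, was higher at day 1 by 0.34 and at day 14 by 0.28, whereas its brighter probeset was higher on each day from 7 to 35, by 0.19 to 0.40. The day 1 call was lost on the brightest probeset, with 1 fit per day and with all saline arrays as control, and that of day 14 with quantile normalization repeated.

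Gla, which removes galactose from globotriaosylceramide, had the largest change of the group on a dim probeset with a mean level of 6.72. At day 2 it was 6.02, 6.62 and 7.39 in bleomycin mice, against 5.27, 5.55 and 6.88 in saline mice. For day 7 it was 5.60, 7.39 and 7.84 in bleomycin mice, against 5.15, 5.82 and 7.04 in saline mice. Its level at day 14 was 6.95, 7.37 and 7.88 in bleomycin mice, against 5.37, 6.71 and 7.09 in saline mice. The groups overlapped on all 3 days, with 3, 5 and 7 of 8 bleomycin mice above every saline mouse. The log2 fold change was 0.82 at day 2 (standard error 0.24, limma adjusted p = 0.00646), 1.04 at day 7 (standard error 0.24, adjusted p = 0.00018) and 0.95 at day 14 (standard error 0.25, adjusted p = 0.00117). Values of 0.39, 0.02 and 0.23 on days 21, 28 and 35 did not pass the test. The saline means of Gla ranged from 5.85 to 7.01 over the 7 days (limma F test, adjusted p = 0.000123), and with all saline arrays as control the value of day 2 was 0.20, with no call. The brighter probeset of Gla, with a mean level of 8.76, was higher on all days, with 0.45, 0.67, 1.40, 1.19, 0.89, 0.79 and 0.77.

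Gaa, which breaks down glycogen, was lower on the 3 earliest days and did not pass the test later. At day 1 it was 10.27, 10.55 and 10.68 in bleomycin mice, against 10.64, 10.88 and 11.03 in saline mice. The level at day 2 was 10.16, 10.31 and 10.54 in bleomycin mice, against 10.57, 10.67 and 10.72 in saline mice. At day 7 it was 10.16, 10.39 and 10.73 in bleomycin mice, against 10.47, 10.64 and 10.72 in saline mice. The groups did not overlap at day 2 and overlapped on days 1 and 7. Its log2 fold change was -0.31 at day 1 (standard error 0.05, limma adjusted p = 2.45e-06), -0.32 at day 2 (standard error 0.05, adjusted p = 8.92e-07) and -0.22 at day 7 (standard error 0.05, adjusted p = 0.00027). Its second probeset gave -0.30, -0.25 and -0.21 on these days.

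Of 8 lipid hydrolases and their helpers 6 were higher and 1, Npc1, lower at day 7, 5 were higher at day 14 and 7 on each of days 21, 28 and 35, beside 25.7%, 21.9%, 20.5%, 11.5% and 16.9% of all genes higher from day 7 to day 35. Lipa, the acid lipase that frees cholesterol and fatty acids from esters, had its largest change at day 21, and Cd68, Gla and Galns had theirs at day 7. Without replicate 4 of both groups, however, Cd68 had 1.55 at day 21, against 1.34 at day 7. The difference in day between genes was not tested. At day 14 Lipa was 10.68, 10.98 and 11.24 in bleomycin mice, against 9.83, 10.12 and 10.23 in saline mice. On day 21 its level was 10.28, 10.92 and 11.31 in bleomycin mice, against 9.67, 9.82 and 10.36 in saline mice. At day 28 it was 10.49, 10.68 and 10.90 in bleomycin mice, against 9.62, 9.83 and 10.25 in saline mice. The groups overlapped at day 21 and on neither of the other days. The difference on the log2 scale was 0.89 at day 14 (standard error 0.11, limma adjusted p = 1.93e-11), 0.96 at day 21 (standard error 0.10, adjusted p = 1.24e-12) and 0.81 at day 28 (standard error 0.10, adjusted p = 2.21e-09). Without replicate 4 of both groups the value at day 21 was 1.11. Lipa was also higher by 0.29 at day 1 and 0.28 at day 2, but its brightest probeset gave -0.046 and 0.12 there, with no call.

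Npc1, the membrane protein through which cholesterol leaves the lysosome, changed direction over time. For day 1 it was 10.67, 10.80 and 11.05 in bleomycin mice, against 10.89, 10.94 and 11.06 in saline mice. At day 2 it was 10.65, 10.76 and 11.15 in bleomycin mice, against 11.01, 11.14 and 11.21 in saline mice. Its level at day 7 was 10.88, 10.91 and 11.13 in bleomycin mice, against 10.97, 11.10 and 11.24 in saline mice. The groups overlapped on all 3 days, with 7, 7 and 6 of 8 bleomycin mice below every saline mouse. The level at day 35 was 11.08, 11.21 and 11.32 in bleomycin mice, against 10.83, 10.91 and 10.97 in saline mice, without overlap. The log2 fold change was -0.14 at day 1, -0.33 at day 2 (standard error 0.05, limma adjusted p = 1.67e-07), -0.17 at day 7, 0.29 at day 21, 0.25 at day 28 and 0.31 at day 35 (standard error 0.05, adjusted p = 9.87e-07). The value of 0.12 at day 14 did not pass the test. The saline levels of Npc1 differed between days as well (saline means from 10.91 to 11.13, limma F test, adjusted p = 5.06e-05), and against all saline arrays the value of day 7 was -0.05, with no call. The call of day 1 was lost with 1 fit per day.

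Npc2, the soluble partner of Npc1, was higher on 6 of 7 days, by 0.30 to 0.45 on a dim probeset and by 0.10 to 0.20 from day 7 on with the pair of probesets whose mean levels were 13.83 and 13.91. The call of Npc2 at day 1 was lost on the brightest probeset. Over the other ways of processing its lowest values were 0.05 at day 1 and 0.06 at day 2. Its call at day 21 was lost without saline replicate 4 of that day, with 0.28, and those of days 7 and 21 with 1 fit per day. Psap, the precursor of the saposins that present lipids to hydrolases, was higher from day 7 on by 0.42 to 0.48, Gm2a, the activator for GM2 ganglioside, by 0.30 to 0.45, and Ppt1, which takes palmitate off proteins, by 0.42 to 0.61. On its brightest probeset Ppt1 was higher by 0.12 to 0.22 on these days, and with the mean of probesets Gm2a was not called at day 28. A dimmer probeset of Ppt1 was lower at day 21 (-0.19). Asah1, the acid ceramidase, was higher by 0.08 to 0.15 from day 7 on, with the call of day 35 lost with 1 fit per day. Smpd1, the acid sphingomyelinase, passed the test on no day, with values from -0.07 to 0.22.

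Grn, which encodes progranulin, a secreted glycoprotein that is cut into granulins in the lysosome, was 12.16, 12.33 and 12.47 in bleomycin mice at day 2, against 12.12, 12.16 and 12.22 in saline mice. At day 7 it was 12.40, 12.56 and 12.85 in bleomycin mice, against 12.12, 12.17 and 12.21 in saline mice. On day 14 its level was 12.46, 12.57 and 12.66 in bleomycin mice, against 12.22, 12.25 and 12.30 in saline mice. The groups overlapped at day 2 and not on days 7 and 14. Its log2 fold change was 0.15 at day 2, 0.42 at day 7 (standard error 0.05, limma adjusted p = 3.85e-13) and 0.30 at day 14, and 0.14 to 0.19 later. On the brightest probeset the values of days 28 and 35 were 0.10 and 0.07, with no call, and the call of day 2 was lost with all saline arrays as control.

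The 4 proton pump subunits had a median log2 fold change of 0.19, 0.18, 0.22, 0.28 and 0.16 from day 7 to day 35. On each of these days 3 of them were higher, beside 25.7%, 21.9%, 20.5%, 11.5% and 16.9% of all genes. Atp6v1a, the catalytic subunit, was 11.17, 11.40 and 11.59 in bleomycin mice at day 21, against 11.02, 11.09 and 11.15 in saline mice. For day 28 it was 11.14, 11.30 and 11.45 in bleomycin mice, against 10.75, 10.98 and 11.11 in saline mice. At day 35 it was 11.10, 11.23 and 11.31 in bleomycin mice, against 10.90, 11.06 and 11.17 in saline mice. The groups did not overlap on days 21 and 28 and overlapped at day 35. The difference on the log2 scale was 0.32 at day 21 (standard error 0.06, limma adjusted p = 5.21e-06), 0.35 at day 28 (standard error 0.06, adjusted p = 4.29e-06) and 0.16 at day 35 (standard error 0.06, adjusted p = 0.0273). The call of day 35 was lost without bleomycin replicate 3 of that day, with a value of 0.15. Atp6v1c1, a subunit that joins the soluble to the membrane sector, was higher from day 7 on by 0.21 to 0.27, and Atp6v0d1, a subunit of the membrane sector, by 0.14 to 0.20. Atp6v1b2, which forms the catalytic head with Atp6v1a, passed the test on no day on its most variable probeset, but was higher on each day from 7 to 35 on both others, by 0.14 to 0.46.

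**Figure D4:**
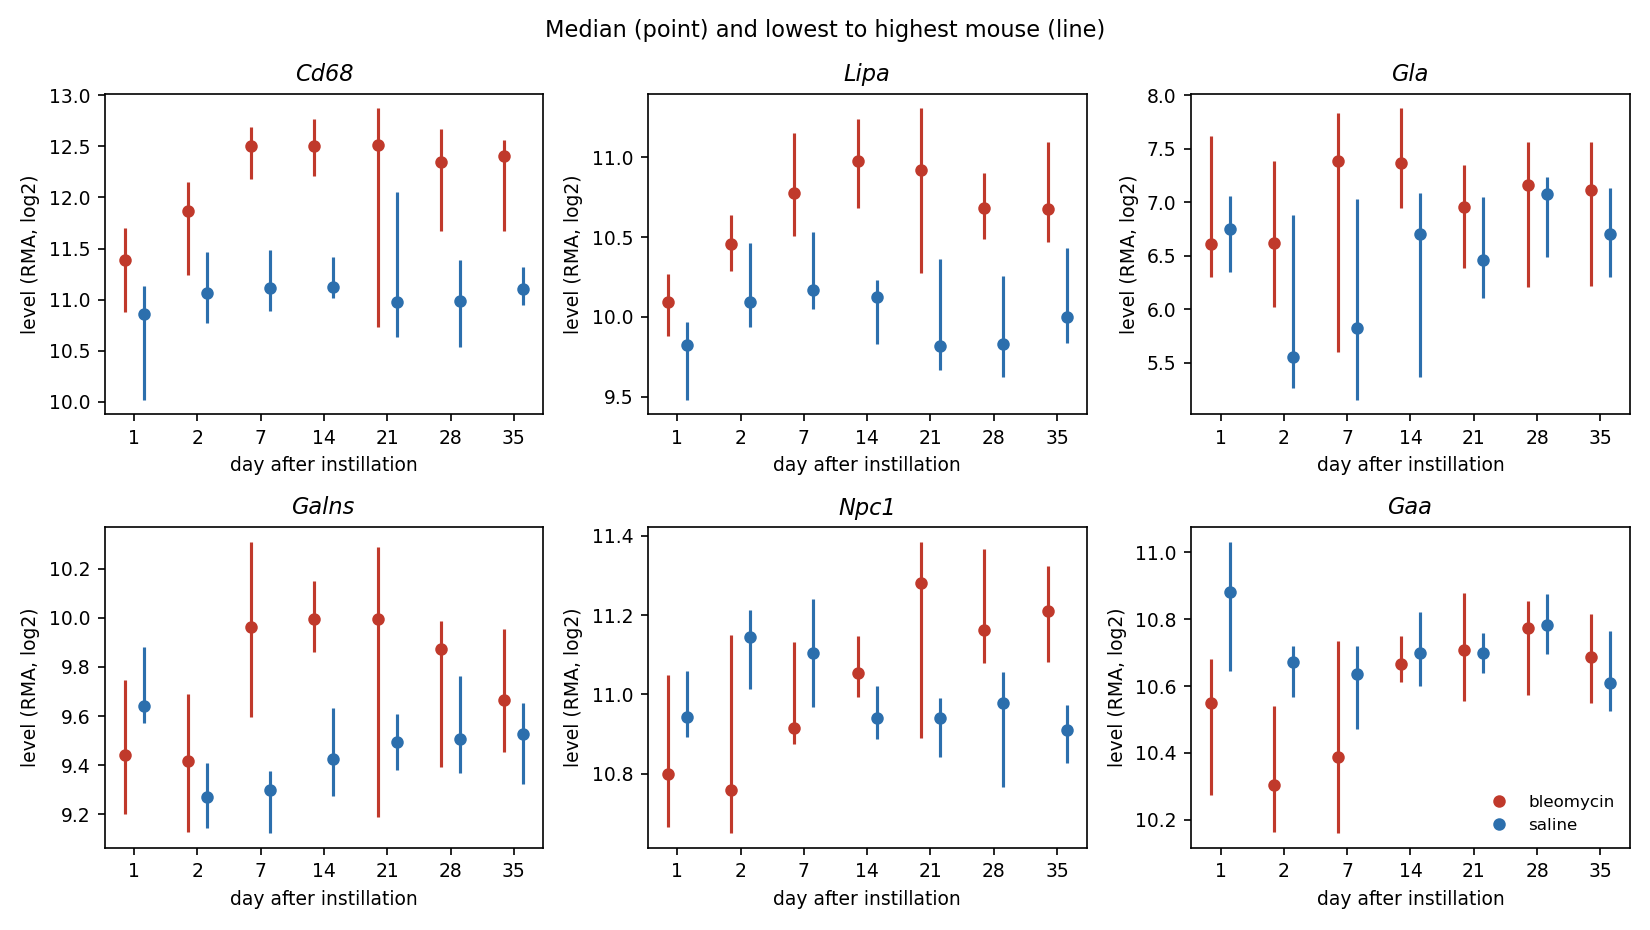
Level on the normalized log2 scale (vertical axis) by day (horizontal axis) of Cd68, Lipa, Gla, Galns, Npc1 and Gaa, with the median mouse as a point and a line from the lowest to the highest mouse, bleomycin in red left of saline in blue. Cd68 groups did not overlap at day 7, where bleomycin mice lay at 12.18 and above, and Npc1 medians at day 2 were 10.76 in bleomycin mice and 11.14 in saline mice.

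The response was tested between periods of the course, as the difference of bleomycin minus saline on days 7 and 14 minus that on days 1 and 2. It was higher on days 7 and 14 for 27 of the 36 genes, against 20.4% of all genes, and lower for none, against 15.8%. Glb1 had a difference of 0.63 (standard error 0.06, limma adjusted p = 5.1e-14), Galns 0.69 (standard error 0.09), Cd68 0.74 (standard error 0.17) and Lipa 0.46 (standard error 0.10). Neither Npc2 (-0.18) nor Atp6v1a (0.08) passed this test.

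From days 7 and 14 to days 21 to 35 the response was higher for 4 genes (Npc1, Ctsc, Ctsl and Gaa), against 11.9% of all genes, and lower for 7 (Gla, Galns, Glb1, Naglu, Grn, Scarb2 and Manba), against 14.9%. Of the 7 lower genes 5 were among the glycosidases and sulfatase, which make up 10 of the 36 genes. Whether this role differed from the others was not tested. Npc1 had a difference of 0.31 (standard error 0.05, limma adjusted p = 9.5e-08), Gla -0.78 (standard error 0.22, adjusted p = 0.00513) and Glb1 -0.31 (standard error 0.06, adjusted p = 9.1e-06). Cd68 (-0.12) and Lipa (0.08) did not pass this test. The share of lysosomal genes that changed between these periods was near that of all genes in both directions.

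Among saline mice the levels of 17 of the 36 genes differed between the 7 days (limma F test, adjusted p under 0.05), against 54.1% of all genes. The saline means spanned 0.03 for Atp6v0d1 and 1.16 for Gla. For Lipa they spanned 0.41 and for Cd68 0.37, of which Lipa alone passed the test.

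Of the 36 genes 23 had several probesets, and for 19 of them the most variable probeset was not the brightest. On all 75 probesets 60 were higher and 5 lower at day 7, 61 and none at day 14, and 64 and 1 at day 21. The shares over all 27871 probesets of 1 gene were not counted. Counted by gene, 25.7%, 21.9% and 20.5% of all genes were higher and 21.9%, 19.7% and 18.9% lower on these days. Calls in opposite directions on the same day were found for Ctsl and Man2b1 at day 7, Ppt1 at day 21 and Ctsl at day 35. Bright probesets of Laptm5, with a mean level of 13.53, and of Scarb2, with 13.49, gave 0.17 and 0.01 at day 14, against 0.59 and 0.41 on the most variable ones.

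**Figure D5:**
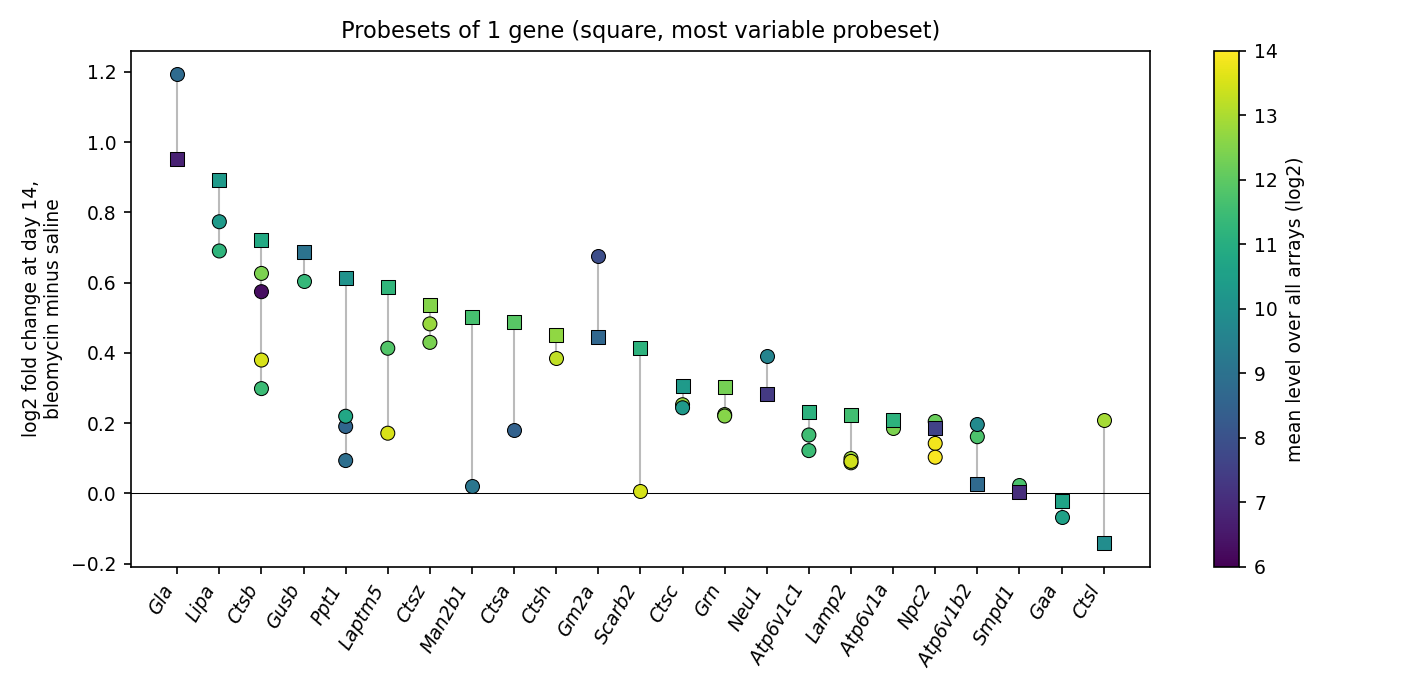
Log2 fold change of bleomycin minus saline at day 14 (vertical axis) for each probeset of the 23 lysosomal genes with several, with the most variable probeset as a square and the others as circles, coloured by mean level over all arrays on the log2 scale. Values of Scarb2 ranged from 0.01 to 0.41 and those of Ctsl from -0.14 to 0.21.

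Other lysosomal genes, listed by name with earlier results of these data known, included higher and lower ones. Among 18 other acid hydrolases 9 were higher and 4 lower at day 21, with a median of 0.14, and the share of lower ones was near the 18.9% of all genes (20.5% were higher). Ctsk, a collagen-degrading cathepsin, had 1.51 (standard error 0.18, limma adjusted p = 7.03e-11), Acp5, the tartrate-resistant phosphatase, 1.40, Galc, which removes galactose from ceramides, 0.66, and Lgmn, which processes cathepsins, 0.64. Among 16 other lysosomal membrane proteins 7 were higher and 1 lower on that day, with a median of 0.09, led by Gpnmb, a glycoprotein of macrophages, with 1.75 (standard error 0.23, adjusted p = 8.5e-10). Slc37a2, a sugar phosphate carrier, had 0.85 and Slc11a2, an iron carrier, 0.33, and Slc11a1, the iron carrier of phagosomes, with 0.36 did not pass the test.

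Among 17 other V-ATPase subunits 9 were higher and 4 lower at day 7, with a median of 0.10, beside 25.7% of all genes higher and 21.9% lower, a share near that of the lower subunits. Atp6v0d2, known from osteoclasts and macrophages, had 0.93 at day 7 and 1.84 at day 21, while Atp6v1c2 had -1.09 and Atp6v1b1, known from acid-secreting epithelium, -0.76 at day 7. Atp6v0a1 had 0.36. Among 11 genes of mannose 6-phosphate tagging and sorting 6 were higher and 2 lower at day 21 (20.5% and 18.9% of all genes), with Gnptab, which starts the tag, at 0.53, Igf2r, its large receptor, at 0.36, Sort1 at 0.30 and Ap3d1 at -0.26.

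Among 11 regulators of lysosome formation 5 were higher and 3 lower at day 7, beside 25.7% and 21.9% of all genes, and the share of lower ones was near that of all genes. Tfec, a relative of TFEB, had 1.11 (standard error 0.17, limma adjusted p = 3.18e-08), Mitf, another relative, 0.32, Fnip2 0.33 and Mtor, the kinase that holds TFEB in the cytoplasm, -0.34. Tfeb itself had 0.13 at day 7, which did not pass the test. Among 15 autophagy genes 5 were higher and 5 lower at day 14 (21.9% and 19.7% of all genes), with Atg9b at 1.65, Atg7 at 0.37, Gabarapl1 at -0.34 and Vps11 at -0.53, and a median of 0.01. Among 4 cathepsin inhibitors Cstb, the cystatin of the cytoplasm, had 0.54 at day 21, Cst3 0.05 and Cst7 -0.37, and Stfa3 with 0.07 did not pass the test.

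Many markers of macrophages and phagocytic receptors were also higher, and the timing of these lists was not compared by a test. Of 15 macrophage and monocyte markers 1 was higher and 1 lower at day 1 and 7 and 1 at day 2 (median 0.30). At day 7, 9 were higher and 3 lower (median 0.54). Of all genes 14.7%, 14.2% and 25.7% were higher and 16.7%, 13.1% and 21.9% lower on these days. Ms4a7 had 2.10 at day 7 (standard error 0.25, limma adjusted p = 1.43e-11), Aif1 1.39, Ccr2, of recruited monocytes, 1.18 and Krt79 -1.29. At day 14, 9 were higher and 3 lower (21.9% and 19.7% of all genes). The lower ones there were Krt79 at -1.55, Car4 at -0.54 and Lyz1 at -0.49, and Car4 was also listed as an endothelial marker. The mean level of the 15 markers at day 7 was 10.75 to 11.07 in bleomycin mice and 10.37 to 10.62 in saline mice. At day 21 it was 10.33 to 11.03 in bleomycin mice and 10.01 to 10.51 in saline mice. Of 22 phagocytic receptors and their ligands 5 were higher and 2 lower at day 1 and 10 and 2 at day 2 (median 0.22). At day 7, 14 were higher and 3 lower (median 0.57). The shares of all genes on these days are those given for the macrophage markers. The scavenger receptor Msr1 had 2.61 at day 7, Trem2 2.55, and the Fc receptors Fcgr1 1.92 and Fcgr2b 1.77. At day 28, 13 were higher and 3 lower (11.5% and 11.8% of all genes). The lower ones there were Cd163 at -0.61, Stab1 at -0.28 and Cd36 at -0.17. The mean level of the 22 genes at day 7 was 10.39 to 10.71 in bleomycin mice and 9.71 to 9.94 in saline mice. Of 9 alveolar type II markers, the other lysosome-rich cells here, 5 were lower and none higher at day 7 (21.9% and 25.7% of all genes), and their mean level ranged from 11.78 to 12.23 in bleomycin mice and from 12.08 to 12.25 in saline mice. Of the type II markers 3 were higher and 1 lower at day 21, beside 20.5% and 18.9% of all genes. At day 35, 3 were higher and none lower, beside 16.9% and 12.5% of all genes. The part of these cells in the lysosomal values was not tested.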

How the data were processed

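Whole-lung RNA of 56 bleomycin and 55 saline mice was amplified and run on Affymetrix mouse genome arrays. The authors remapped the probes to the mouse genome (build not given in the sources used here), discarded ambiguous and obsolete ones, normalized by RMA and removed 1 saline array after principal component analysis; the deposited values are log2 levels per probeset. Of 32688 probesets 27871 had 1 gene in the platform annotation, 314 several and 4503 none. The members and lists were chosen with earlier results of these data known. limma 3.58.1 in R 4.3.3, tested on simulated data, was fitted to 14 group means with contrasts per day and between periods. Mouse levels are given for the gene of each role with the largest change and for the 4 largest increases and decreases, and other lists by up to 4 genes on the day with most calls. Alternatives (11, and 4 chosen after seeing the data) varied probeset, filter, scaling, controls, model and arrays. The number of mice limits the precision. Promoter windows came from RefSeq.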

Additional observations from a re-analysis of the deposited data

Results flagged for a closer look

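In 9 of 168 groups of mice checked, a mouse lay far from the others of its group for a gene with levels given above, and chance alone gives about 1 in 20. Of these, 4 were saline replicate 4 of day 21, with 11.29 for Ctsb (next mouse 10.71), 11.93 for Ctsa (11.76), 12.05 for Cd68 (11.14) and 10.78 for the mean of the 36 genes (10.66). Among saline mice Ctsa was also 11.86 in replicate 3 of day 35 (11.79), and Grn 12.22 in replicate 3 of day 2 (12.17). Among bleomycin mice Ctsl was 9.88 in replicate 2 of day 21 (next mouse 10.02) and 9.43 in replicate 8 of day 35 (9.75), and Npc1 was 11.13 in replicate 1 of day 7 (10.97).

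Responses differed between periods, by limma's test of the difference itself. On days 7 and 14 against days 1 and 2 the response was higher by 0.74 for Cd68 (adjusted p = 0.000194), 0.69 for Galns (3.41e-10), 0.60 for Ctsb (5.45e-07), 0.47 for Ctsa (6.17e-10), 0.46 for Lipa (0.00017), 0.34 for Grn (4.3e-09), 0.21 for Npc1 (0.000478) and 0.20 for Gaa (0.00184). On days 21 to 35 against days 7 and 14 the difference was 0.31 for Npc1 (adjusted p = 9.5e-08), 0.15 for Ctsl (0.0438), 0.12 for Gaa (0.0493), -0.20 for Grn (0.000203), -0.37 for Galns (0.000166) and -0.78 for Gla (0.00513). The probesets of Ctsl went opposite ways, so its value holds for the most variable one.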

How the results depend on the processing

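Over 15 other ways of processing, 135 of 170 calls of lysosomal genes on single days kept their direction and passed the test under each that gave a value. The other 35 were lost under some, 16 of them on the brightest probeset, and 3 of the 35 also changed sign there: Ctsl had 0.14 at day 7 and 0.18 at day 35, and Lipa -0.046 at day 1. Higher genes at day 1 numbered 7, against 4 with 1 fit per day and 1 with all saline arrays as control. Lower genes at day 14 numbered 0, against 1 with array weights. At day 35, 1 gene was lower, against 0 on the brightest probeset and 0 on the mean of probesets. On the brightest probeset 1 gene, against 0, had a lower response on days 7 and 14 than on days 1 and 2, and 2 genes, against 4, had a higher response on days 21 to 35 than on days 7 and 14. The cause was not tested. The range of higher genes over all alternatives was 9 to 13 for day 2, 27 to 31 for day 7, 29 to 32 for day 14, 28 to 35 for day 21, 26 to 31 for day 28 and 25 to 30 for day 35, with 25 reached without bleomycin replicate 3 of day 35. Single-day fits and fits with all saline arrays gave no contrast between periods, and the filter on the 30% dimmest genes left out Gla.

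Replicate numbers did not pair the mice (median correlation of deviations 0.06 over 55 pairs, 23 of them above 0.1). With replicate number as a block the higher genes of day 21 numbered 31 in place of 30 and those of day 28 numbered 27 in place of 26, 1 gene in place of 0 was lower at day 14, and no other count of lysosomal genes changed. Gla had a standard error of 0.24 at a mean level of 6.72, and the cause was not tested.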

Other observations

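Markers of other cells of the lung also moved. Of 15 endothelial markers 12 were lower and 1 higher at day 7 (21.9% and 25.7% of all genes), with Ednrb at -0.65, Kdr at -0.56, Tie1 at -0.55 and Egfl7 at -0.53. Car4 was listed among the endothelial and the macrophage markers. Of 12 fibroblast markers 6 were higher and 4 lower at day 14 (21.9% and 19.7% of all genes), with Lum at 1.27, Col3a1 at 1.13, Col1a2 at 1.11 and Col1a1 at 0.95, and the 4 lower ones, outside the rule for naming, were Tcf21 at -0.63, Inmt at -0.58, Pdgfra at -0.54 and Npnt at -0.34. Of 9 alveolar type II markers 6 were lower and none higher at day 14 (19.7% and 21.9% of all genes), with Abca3, the lipid pump of lamellar bodies, at -0.44, Napsa at -0.33, Sftpa1 at -0.25 and Sftpb at -0.15. Of 11 neutrophil markers 5 were higher and none lower at day 2 (14.2% and 13.1% of all genes), with a median of 0.86. At day 7, 3 were higher and 4 lower (25.7% and 21.9% of all genes), with Cd177 at 1.53, Mmp8 at 1.19, Il1r2 at 1.08 and Cxcr2 at -1.12, and the 3 other lower ones, outside the rule for naming, were Mmp9 at -1.02, S100a8 at -0.91 and S100a9 at -0.88. Of 11 B and T cell markers 6 were lower and none higher at day 35 (12.5% and 16.9% of all genes), with Blk at -1.06, Ms4a1 at -0.89, Cd79b at -0.85 and Cd8a at -0.71. Both red blood cell markers were lower at day 7 (21.9% of all genes), Alas2 at -2.25 and Slc4a1 at -1.35. The part of these cells in the lysosomal values was not tested.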
